A study of Mus musculus with 8 samples.

Results

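The natriuretic peptide and cyclic GMP (cGMP) route to meiotic arrest was followed through 9 genes in immature mouse oocytes. The genes were the ligand Nppc, the receptors Npr2, Npr1 and Npr3, the soluble guanylyl cyclase subunits Gucy1a1 (also called Gucy1a3) and Gucy1b1 (also called Gucy1b3), the cGMP phosphodiesterase Pde5a, and the cGMP-dependent protein kinases Prkg1 and Prkg2. They were chosen by name and are measured by the 19 probe sets that carry exactly 1 of these symbols, among the 45037 probe sets of the array that are not controls, which name 18193 genes in all. Total RNA was measured on 8 single-colour arrays. Of these, 4 held oocytes of the germinal vesicle (GV) stage, whose nucleus is still intact, kept for 48 h in milrinone, and 4 held untreated GV oocytes. Milrinone inhibits PDE3A, the enzyme that degrades cyclic AMP in the oocyte, and so holds oocytes at this stage. The labels give no strain, age, dose or state of the surrounding cumulus cells, and no group cultured without the drug, so drug, culture and elapsed time cannot be told apart. The labels do not tell if replicates are separate animals or collections, and p-values thus reflect only how these samples spread, a spread that can be technical.

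In the ovarian follicle the granulosa cells that line the wall release C-type natriuretic peptide, the product of Nppc. It binds NPR2, a receptor guanylyl cyclase, on the cumulus cells that enclose the oocyte, and the cGMP made there passes through gap junctions into the oocyte. In the oocyte cGMP inhibits PDE3A, keeps cyclic AMP high and maintains arrest, and the surge of luteinizing hormone ends this supply.

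In the deposited table many cells are empty, and listed here means that a probe set had a value on an array. Because an empty cell gives no bound on the signal, folds are not stated against a group without values. Between 18572 and 19414 probe sets were listed on a milrinone array and between 18855 and 23237 on an untreated array, with the most on untreated 1. That array also stood apart in its correlation with the others, with a median of 0.930 against 0.966 to 0.980 for the other 7 arrays. Member results that rest on it are given with and without it. Markers of the labelled cell type were present throughout, with all 17 probe sets of 14 oocyte genes listed on all 8 arrays. They do not tell how much RNA of other cells a sample held, and markers of such cells are given below.

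The 2 members with the clearest difference in listing were the ligand and its receptor, and Prkg1 was the member with both of its probe sets on every array. Their promoters, from 250 bases before to 50 bases after the annotated start, are shown to place these genes. The sequences are from RefSeq on the mouse build GRCm38.p6, where 8 of the 9 genes were matched, all but Prkg2. Capitals mark the letters of motifs searched on both strands.
Nppc (chr1:86670524-86670823, minus strand): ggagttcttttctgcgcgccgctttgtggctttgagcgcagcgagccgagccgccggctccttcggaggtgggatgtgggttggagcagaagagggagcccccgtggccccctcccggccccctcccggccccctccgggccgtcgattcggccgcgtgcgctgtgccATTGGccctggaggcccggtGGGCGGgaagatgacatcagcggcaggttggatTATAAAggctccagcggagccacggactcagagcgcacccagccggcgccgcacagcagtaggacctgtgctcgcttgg
Npr2 (chr4:43631685-43631984, plus strand): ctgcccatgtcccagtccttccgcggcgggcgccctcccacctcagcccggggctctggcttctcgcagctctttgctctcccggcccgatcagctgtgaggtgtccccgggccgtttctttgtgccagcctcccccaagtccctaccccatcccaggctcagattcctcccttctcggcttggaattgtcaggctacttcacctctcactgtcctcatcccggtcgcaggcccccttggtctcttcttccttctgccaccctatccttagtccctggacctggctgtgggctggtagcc
Prkg1, inner start (chr19:31664321-31664620, minus strand): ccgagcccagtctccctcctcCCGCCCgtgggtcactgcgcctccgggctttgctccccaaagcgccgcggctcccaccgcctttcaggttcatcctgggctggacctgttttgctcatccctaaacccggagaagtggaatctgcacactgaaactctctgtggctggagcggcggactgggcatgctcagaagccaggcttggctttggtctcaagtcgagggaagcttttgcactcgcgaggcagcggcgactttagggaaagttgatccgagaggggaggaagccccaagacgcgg
Prkg1, outer start (chr19:31764984-31765283, minus strand): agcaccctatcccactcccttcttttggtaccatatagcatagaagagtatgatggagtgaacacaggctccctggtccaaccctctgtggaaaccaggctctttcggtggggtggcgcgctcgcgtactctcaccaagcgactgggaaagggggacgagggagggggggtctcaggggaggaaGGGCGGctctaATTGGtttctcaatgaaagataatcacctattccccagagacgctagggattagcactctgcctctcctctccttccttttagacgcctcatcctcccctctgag
The promoter element called the TATA box was searched as TATAAA. The element that binds the factor NF-Y was searched as CCAAT, and the GC box, which Sp1 binds, was searched as GGGCGG. The response element of the cyclic AMP pathway was searched as TGACGTCA and the half-site of NR5A receptors as AAGGTCA, and no marked matches overlapped. The Nppc promoter held TATAAA at position -29, GGGCGG at -62 and CCAAT on the reverse strand at -82, counted from the start site to the first base of the match. The outer Prkg1 promoter held GGGCGG at -66 and CCAAT on the reverse strand at -55, and the inner one held GGGCGG on the reverse strand at -229. None of the 5 motifs was in the Npr2 window, and neither TGACGTCA nor AAGGTCA was in any of these 4 windows. Among 32817 promoters of this length, 13.6% held TATAAA, 37.4% CCAAT, 35.6% GGGCGG, 1.79% TGACGTCA and 4.72% AAGGTCA. A match is a string of letters and not a shown site.

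The ligand Nppc and the receptor Npr2 were listed on all 4 untreated arrays and on none of the 4 milrinone arrays. The Nppc probe set (1422790_at) had no value on the 4 milrinone arrays, against intensities of 149.8, 62.6, 63.3 and 62.2 on untreated 1 to 4. Its values on untreated 2 to 4 lay within 1.02 intensity units of each other, and untreated 1 stood far above them. The Npr2 probe set (1427191_at) likewise had no value on the 4 milrinone arrays, against 554, 134, 126 and 112 on untreated 1 to 4. Here too untreated 1 was the highest, and without it the mean was 124 ± 11.2 (SD, n = 3). Leaving out untreated 1 left both genes listed on the other 3 untreated arrays and on no milrinone array.

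This pattern was uncommon over the whole table. It was found in 2 of the 19 member probe sets and in 212 of the 45037 probe sets, or 0.471%. Among the 15931 probe sets listed on all 4 untreated arrays, 1.33% had no value in milrinone. The opposite pattern, listed on all 4 milrinone and no untreated arrays, was found in 0 members and in 0.0333% of all probe sets. Both genes lay in the lower part of the listed values. On the milrinone arrays between 11.9% and 13.4% of the listed values lay below 62.2, the lowest Nppc value, and between 21.6% and 23.3% lay below 112, the lowest Npr2 value. Because the rule for empty cells was not given, these shares do not tell why both genes had no value there. Listing in itself was not tested for single genes, and in these bulk samples fewer cells of a type and less RNA per cell cannot be told apart.

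Many markers of the cells around the oocyte, though not all, differed between the groups in the same direction as Nppc and Npr2. Granulosa and cumulus markers had 10 to 15 of 37 probe sets listed on the milrinone arrays, against 18 to 25 on the untreated arrays. The summed intensity of their listed values was 2909 to 3477 in milrinone and 12106 to 51576 in untreated samples. Of 18 such genes on the array, Amh, Amhr2, Fst and Tnfaip6 had no value in milrinone, and Amh had none on any array. Tnfaip6 had a value on untreated 2 alone, at 14.4. Not all members of the list followed, since Has2 1418678_at was listed on 2 arrays of each group. Ptgs2 1417263_at was listed on 2 milrinone and 1 untreated arrays. Kitl 1415855_at, on 3 milrinone and 4 untreated arrays, had a log2 difference of -0.08. Theca and steroid markers had 1 to 2 of 10 probe sets listed in milrinone and 5 to 9 in untreated samples, with sums of 181 to 435 and of 3513 to 35816, and Cyp17a1, Star and Nr5a1 had no value in milrinone. Cyp11a1 was mixed, with 1448804_at on 4 untreated arrays alone and 1439947_at on 4 milrinone and 3 untreated arrays. The log2 difference of 1439947_at was 0.29 (limma adjusted p = 0.603). The highest sums of both lists were on untreated 1, the array with the highest values of Nppc and Npr2. The other untreated arrays did not all follow this order. On untreated 2 to 4 the granulosa and cumulus sums were 12106, 12417 and 16555, beside Npr2 values of 134, 126 and 112. The theca and steroid sums there were 5753, 7072 and 3513. The part of these cells in the result was not tested.

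The other natriuretic peptide receptors were scarcely listed. Npr1, the receptor guanylyl cyclase for the atrial and brain peptides, had no value on any of the 8 arrays. Npr3 encodes the clearance receptor, which binds the peptides and removes them without making cGMP. Of its 3 probe sets, 2 had no value on any array. The remaining one (1435184_at) had no value in milrinone and 13.8, 12.2 and 33.5 on untreated 1 to 3. Listing on no array was found for 3 of the 19 member probe sets and for 35.5% of all probe sets.

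The soluble guanylyl cyclase, which makes cGMP in answer to nitric oxide, was listed on scattered arrays. Of the 3 probe sets of its alpha subunit Gucy1a1, 1420533_at had 42.0 on milrinone 3, against 96.5 on untreated 1 and 58.6 on untreated 4. The probe set 1420534_at had 65.0 on milrinone 1, against 61.3 and 58.9 on untreated 1 and 2, and 1434141_at had only 245 on untreated 1. No Gucy1a1 probe set was listed on more than 3 of 8 arrays, and the single milrinone value was the lowest for 1420533_at and the highest for 1420534_at. The beta subunit Gucy1b1 had no value in milrinone. Its probe set 1420871_at had 38.7 on untreated 1 and 43.5 on untreated 4, and 1420872_at had 28.6 and 29.3 on untreated 1 and 2.

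In all, 7 of the 19 member probe sets were listed on at least 1 untreated and no milrinone array, against 12% of all probe sets, and 0 were listed on milrinone arrays alone, against 4.55%. Member probe sets listed numbered 7, 6, 6 and 6 on milrinone 1 to 4, and 15, 10, 9 and 10 on untreated 1 to 4. Every untreated array thus listed more members than any milrinone array. The 2 probe sets listed on untreated 1 alone were 1 of Gucy1a1 and 1 of Pde5a. Over all probe sets 18572, 18803, 18697 and 19414 were listed on milrinone 1 to 4. On untreated 1 to 4 they numbered 23237, 21151, 19974 and 18855, so untreated 4 listed fewer probe sets than milrinone 4. Smooth muscle and stroma markers, added because vessel and stromal cells are known to use this pathway, had 3 to 4 of 24 probe sets listed in milrinone and 6 to 14 in untreated samples, with sums of 1151 to 1350 and of 1394 to 18747. Of the 12 genes, 7 had no value in milrinone: Acta2, Tagln, Col1a1, Col1a2, Dcn, Lum and Pdgfra. Tagln had a value on untreated 1 alone. Not all members of the list followed this pattern, since Cnn1 was listed on 4 milrinone and 2 untreated arrays, a probe set of Des (1426732_at) on 2 and 1, and Myh11 (1448962_at) on all 8 with a log2 difference of 0.07. Endothelial and blood markers had 3 to 5 of 12 listed in milrinone and 5 to 8 in untreated samples, with sums of 585 to 689 and of 825 to 1585, and Cdh5, Cd34, Lyz2 and Hba-a1 had values in untreated samples alone, Hba-a1 on 1 array. Pecam1 had no value on any array, whereas Kdr and Tek had values on all 8 arrays, with log2 differences of -0.15 and 0.12. The part of these cells in the listing of the members was not tested.

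**Figure D1:**
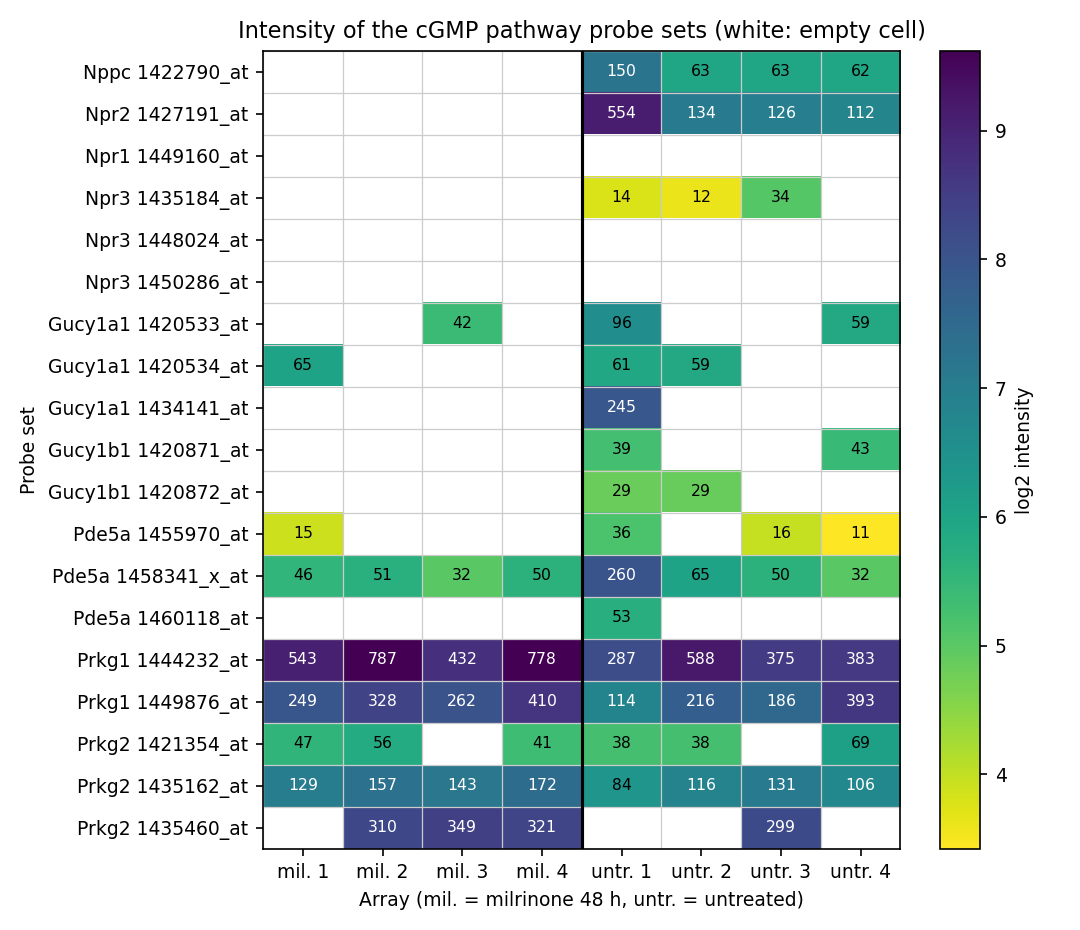
Deposited intensity of the 19 member probe sets (rows) on the 4 milrinone and 4 untreated arrays (columns), with colour on a log2 scale and white for an empty cell. Nppc and Npr2 have values on the 4 untreated arrays only, and both probe sets of Prkg1 have values on all 8 arrays.

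**Figure D2:**
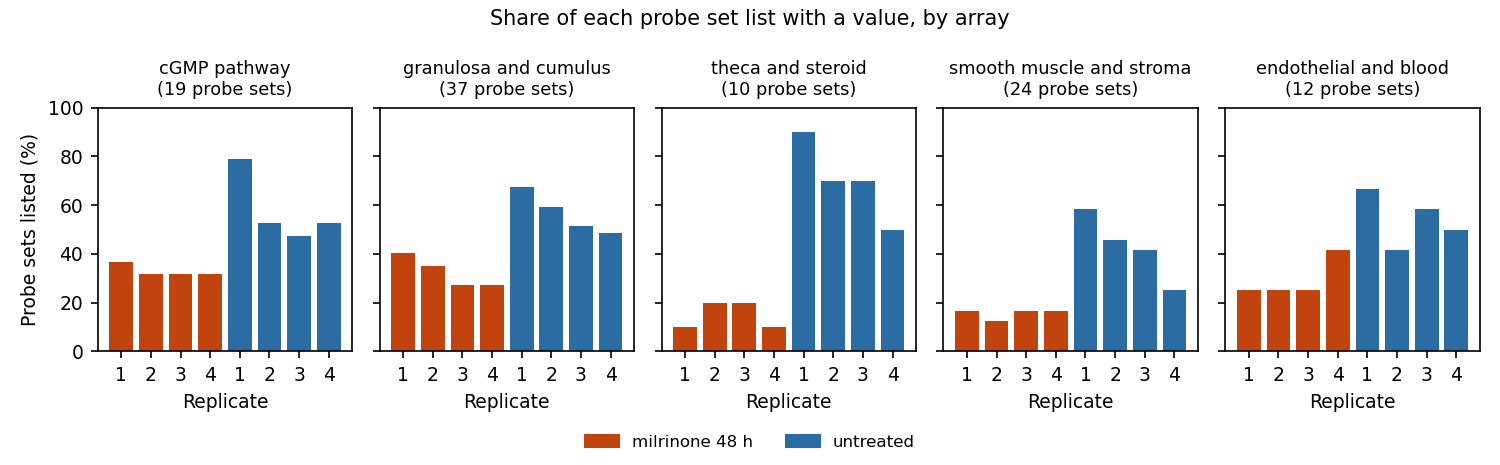
Share of the probe sets of each list with a value on each array, in percent, for the cGMP pathway and 4 marker lists, with replicates 1 to 4 of milrinone left of those of untreated. The cGMP pathway had 7, 6, 6 and 6 of 19 probe sets listed in milrinone and 15, 10, 9 and 10 in untreated samples. Of all probe sets, 56.9% to 58.8% had no value on a milrinone array and 48.4% to 58.1% on an untreated array.

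The kinases downstream of cGMP were listed in both groups. Both Prkg1 probe sets, 1 of 3 of Prkg2 and 1 of 3 of Pde5a were listed on all 8 arrays, or 4 of the 19 members beside 32% of all probe sets. Prkg1 encodes the cGMP-dependent kinase known from smooth muscle, and Prkg2 the membrane-bound kinase known from intestine and growth plate. Differences were tested with limma on log2(intensity + 16) over the 16288 probe sets with values on 3 or more of the 4 arrays of both groups, and are milrinone minus untreated. The pseudocount of 16 understates changes of dim probe sets. This rule admitted 5 member probe sets, of Prkg1, Prkg2 and Pde5a, and left the other 6 genes untested.

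None of the 5 passed (limma, adjusted p under 0.05), and 2 had an unadjusted p under 0.05, both higher in milrinone. Over all tested probe sets 0.117% passed, all of them lower, and 5.62% had an unadjusted p under 0.05 and were higher in milrinone, with another 4% lower. The median log2 difference of the 5 was 0.42, beside 0.06 over all tested probe sets, and the 5 stand for only 3 genes.

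The Prkg1 probe set 1444232_at had intensities of 543, 787, 432 and 778 on milrinone 1 to 4, against 287, 588, 375 and 383 on untreated 1 to 4. The groups overlapped, since untreated 2 lay above milrinone 1 and 3. The means were 635 ± 176 in milrinone and 408 ± 128 in untreated samples (SD, n = 4 each), a log2 difference of 0.62 (SE 0.25, 95% interval 0.06 to 1.18, limma adjusted p = 0.495). Without untreated 1, where the level was lowest, the difference was 0.48 (limma adjusted p = 0.646).

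The other Prkg1 probe set, 1449876_at, had 249, 328, 262 and 410.1 on milrinone 1 to 4, against 114, 216, 186 and 393 on untreated 1 to 4. Untreated 4 reached the milrinone values, and the other 3 untreated arrays lay below all of them. The log2 difference was 0.53 (SE 0.31, 95% interval -0.16 to 1.22, limma adjusted p = 0.569), so neither Prkg1 probe set passed. It depended on single arrays, at 0.27 without untreated 1 and 0.82 without untreated 4, and passed in neither case.

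For Prkg2, 1435162_at had 129, 157, 143 and 172 on milrinone 1 to 4, against 83.9, 116, 131 and 106 on untreated 1 to 4. The groups met at 1 point, where untreated 3 lay just above milrinone 1. The means were 150.4 ± 18.5 in milrinone and 109 ± 19.9 in untreated samples (SD, n = 4 each), a log2 difference of 0.42 (SE 0.16, 95% interval 0.06 to 0.78, limma adjusted p = 0.494). Without untreated 1 it was 0.31 (limma adjusted p = 0.622).

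The other probe sets of Prkg2 were listed less often and did not share 1 pattern. The probe set 1421354_at had 47.2, 55.9 and 40.6 on milrinone 1, 2 and 4, against 38.0, 37.8 and 68.5 on untreated 1, 2 and 4. Its log2 difference was 0.02 (SE 0.21, 95% interval -0.47 to 0.51, limma adjusted p = 0.975, 3 arrays a group), with a sign that changed to -0.17 under quantile normalization and -0.02 under median centring, and to -0.08 without untreated 1. The probe set 1435460_at had 310.2, 349 and 321 on milrinone 2 to 4, against 299 on untreated 3, and was not tested. It was listed on 3 milrinone arrays against 1 untreated array. The untreated value lay below the 3 milrinone values, and 1 value gives no group level to compare.

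**Figure D3:**
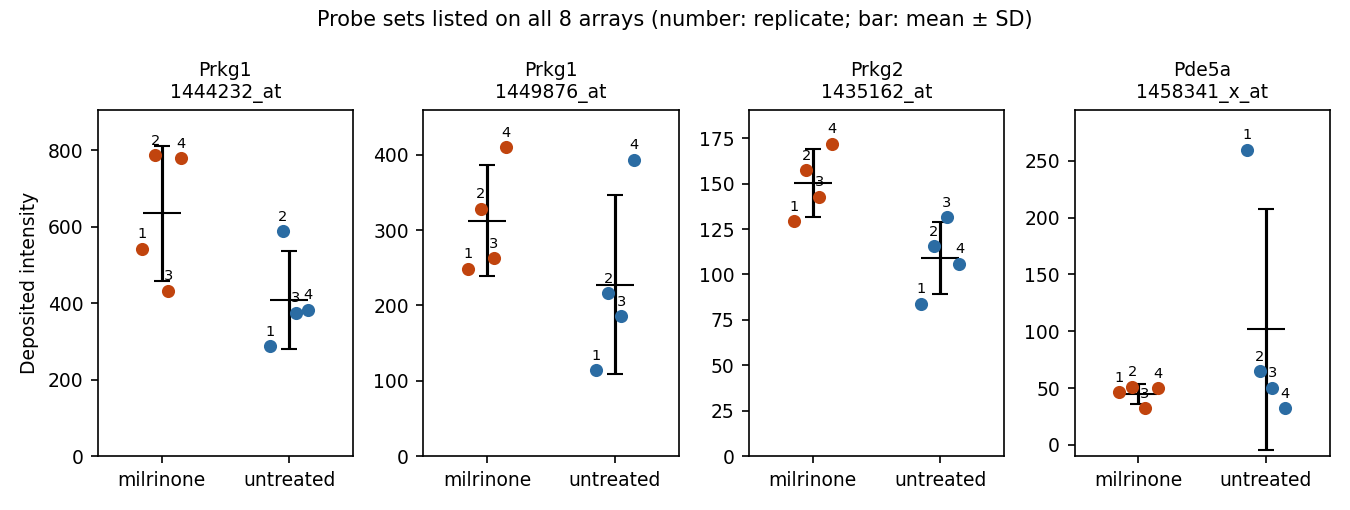
Deposited intensity of the 4 member probe sets listed on all 8 arrays, by group, with points for arrays, numbers for replicates and bars for mean ± SD of 4 arrays. For Prkg1 and Prkg2 the milrinone mean lies above the untreated mean with overlapping points, and for Pde5a untreated 1 lies apart at 259.8.

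Pde5a encodes the phosphodiesterase that degrades cGMP and is the target of sildenafil. Its probe set 1458341_x_at, whose suffix marks probes that can also bind other transcripts, had 46.3, 51.3, 32.4 and 50.1 on milrinone 1 to 4, against 259.8, 65.0, 50.2 and 32.2 on untreated 1 to 4. Untreated 1 lay far above the other 7 arrays, which overlapped. The log2 difference was -0.60 (SE 0.44, 95% interval -1.58 to 0.37, limma adjusted p = 0.630), and without untreated 1 it was -0.07 (limma adjusted p = 0.929). The probe set 1455970_at had 14.8 on milrinone 1, against 36.0, 15.7 and 10.7 on untreated 1, 3 and 4. The third, 1460118_at, had 52.9 on untreated 1 alone. In each of the 3 the highest value was on untreated 1.

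Correlations across the 8 arrays describe these arrays and include the difference between groups, and they leaned on untreated 1, the lowest array for each kinase and the highest for Pde5a. Pearson's r of log2(intensity + 16) between both Prkg1 probe sets was 0.66, and 0.40 without untreated 1. Between Prkg2 1435162_at and Prkg1 1444232_at it was 0.809 and 0.68 without that array, and between Prkg2 1435162_at and Prkg1 1449876_at 0.673 and 0.293. Against Pde5a 1458341_x_at, Prkg1 1444232_at had r of -0.431, Prkg1 1449876_at of -0.786 and Prkg2 1435162_at of -0.651. Without untreated 1 the first and the last changed sign, to 0.554 and 0.165, and that of Prkg1 1449876_at was -0.379. The genes most like Prkg1 1444232_at among those listed on all 8 arrays were 2210406O10Rik (r = 0.979), 1700025G04Rik (0.965) and Cep192 (0.953). Those most like Prkg1 1449876_at were Zfp735 (r = 0.981), Brwd1 (0.978) and Zfp830 (0.964), and those most like Prkg2 1435162_at were Hnrnpdl (0.981), Crebbp (0.976) and Ndrg4 (0.971). For Pde5a 1458341_x_at they were Cox6c (r = 0.993), Ilk (0.990) and Ebp (0.988). Without the 2 arrays farthest from the member's median these 12 correlations lay between 0.851 and 0.969. They are the highest of 14391 probe sets over 8 arrays that share depth and array effects, and say nothing of shared control.

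A wider cGMP list held 58 further genes, among them genes of cyclic AMP synthesis and of signals that raise or end arrest. On the array were 51, and 26 were tested, each by its brightest tested probe set. Of these, 1 fell, 0 rose and 25 did not pass (limma, adjusted p under 0.05), and 5 had an unadjusted p under 0.05. Over all tested probe sets 0.117% passed. With an unadjusted p under 0.05, 5.62% were higher and 4% lower. The median log2 difference of the 26 was 0.07, beside 0.06 over all tested probe sets, with 14 higher and 12 lower in milrinone. In all, 12 of the 51 were listed on no array, and 24 had a probe set listed on all 8. Counted by probe set and not by gene, 35.5% of all probe sets were listed on no array and 32% on all 8. None of the 108 probe sets of the wider list was listed on all 4 arrays of 1 group and none of the other.

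The gene that fell was Gja1, the connexin of the gap junctions between cumulus cells. It had 171, 426, 155 and 25.8 on milrinone 1 to 4, against 9322, 3574, 4109 and 3431 on untreated 1 to 4, a log2 difference of -4.91 (limma adjusted p = 0.0109). No milrinone array reached an untreated one, and the adjusted p was 0.0546 without milrinone 1 and 0.0652 without milrinone 3. Without untreated 1, its highest array, the difference was -4.57 (limma adjusted p = 0.0157). As for Nppc and Npr2, fewer cells of a type and less RNA per cell cannot be told apart in these bulk samples. The oocyte connexin Gja4, which forms the channels through which cGMP enters the oocyte, had 8991 to 9615 in milrinone and 8259 to 10283 in untreated samples. Its log2 difference was -0.02 (95% interval -0.19 to 0.15, limma adjusted p = 0.938).

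The other 4 genes with an unadjusted p under 0.05 did not pass after adjustment, and 3 of them were higher in milrinone and 1, Guk1, was lower. Nos1, a nitric oxide synthase and so a source of the signal for soluble guanylyl cyclase, had 619 to 796 in milrinone and 467 to 603 in untreated samples, a log2 difference of 0.44 (95% interval 0.11 to 0.77, limma adjusted p = 0.469). Its groups did not overlap, though how many of all probe sets show this was not counted. The difference was 0.22 under quantile normalization and 0.75 with centring on ribosomal proteins. The other tested Nos1 probe set, 1438483_at, differed by 0.57 (limma adjusted p = 0.395). Untested ones, 1422949_at and 1458626_at, were listed on scattered arrays of both groups. Abcc4, an exporter of cyclic nucleotides, differed by 0.80 (0.09 to 1.51, limma adjusted p = 0.495) and the receptor gene Egfr, through which the signal to resume meiosis passes in cumulus cells, by 0.30 (0.02 to 0.59, limma adjusted p = 0.506). For both, the groups overlapped, and the difference of Egfr was 0.13 under quantile normalization and 0.61 with centring on ribosomal proteins. Other tested probe sets of Egfr did not rise. They differed by -0.09 (1451530_at, limma adjusted p = 0.930) and -0.005 (1460420_a_at, limma adjusted p = 0.992). Without untreated 1 the differences were 0.38 for the brightest Nos1 probe set, 0.76 for Abcc4 and 0.23 for the brightest Egfr probe set.

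By role, the tested genes outside the gap junction and export group lay between -0.68 and 0.44 on the log2 scale. Of 15 phosphodiesterase genes 8 were tested, with differences from -0.66 to 0.26 and 3 higher. Pde3a, the gene of the enzyme that milrinone inhibits, was not among the tested genes. Its brightest probe set (1450284_at) had 297, 289 and 236 on milrinone 1 to 3, against 174 on untreated 2. Of 9 genes of other guanylyl cyclases and their peptides only Gucy2c, the intestinal receptor for guanylin, was tested, and it differed by 0.30. Both tested genes of guanine nucleotide supply, Gmps and Guk1, differed by 0.11 and -0.68 (limma adjusted p = 0.514 for Guk1), and both myosin phosphatase subunit genes, Ppp1r12a and Ppp1r12b, by 0.19 and 0.09. None of these tested genes passed.

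**Figure D4:**
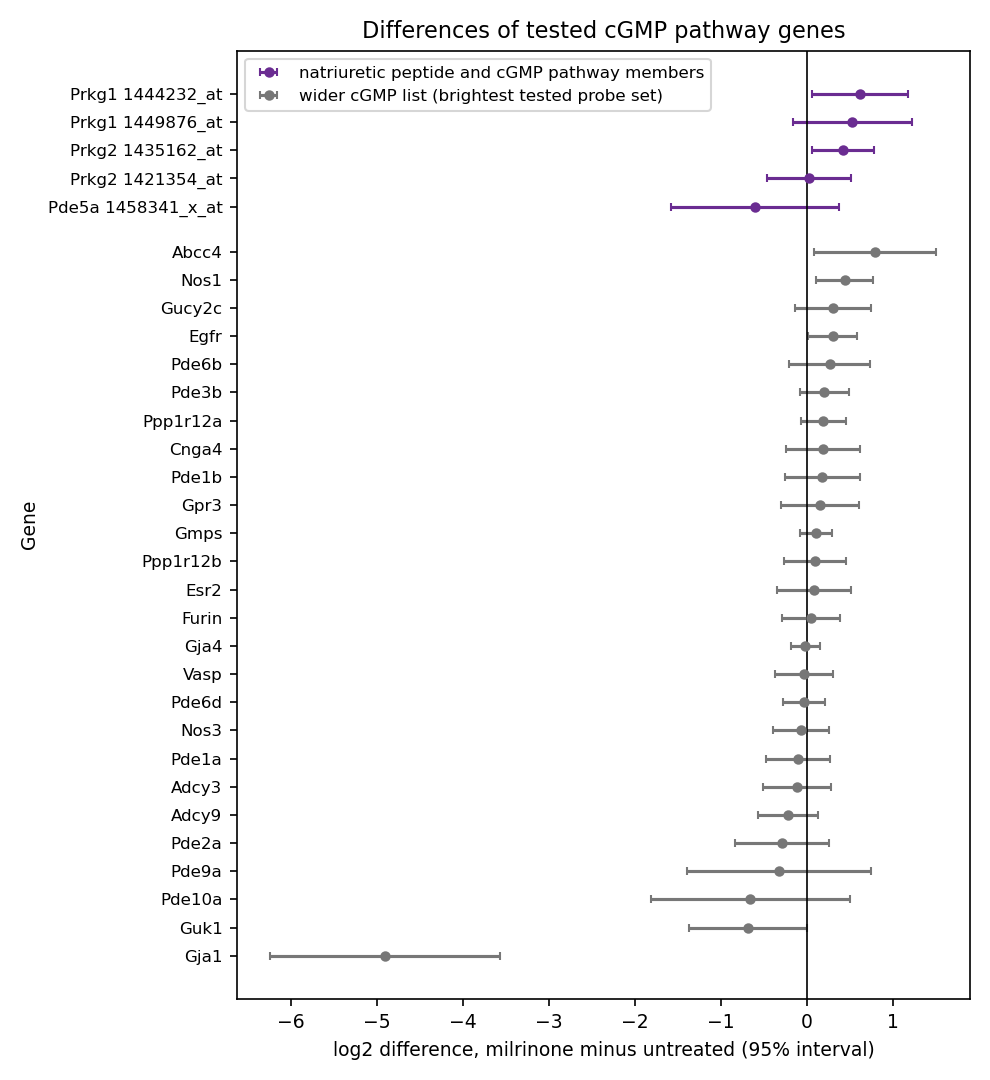
Log2 difference, milrinone minus untreated, with its 95% interval from limma, for the 5 tested member probe sets (top) and the 26 tested genes of the wider cGMP list. Gja1 lies at -4.91, and the members lie between -0.60 and 0.62.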

How the data were processed

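The authors deposited a linear intensity for each of 45101 probe sets on 8 arrays. Per the labels, each array received 15 µg of labelled cRNA, so a level is relative to the other RNA of its sample. Software, scaling and the rule for empty cells were not given in the sources used here. The deposited scaling was kept and empty cells were left empty. The number of arrays limits the precision, with a median SE of 0.17 for a log2 difference.

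Symbols came from the platform annotation and were updated through Entrez identifiers to RefSeq. Of 45037 probe sets 34945 had 1 symbol, 932 had several and 9160 had none. Probe sets with several symbols were given to no gene. Differences of log2(intensity + 16) were fitted in R 4.3.3 with limma 3.58.1 (lmFit and eBayes with a trend, two-sided, Benjamini-Hochberg adjustment over 16288 probe sets, threshold 0.05). On simulated data for this comparison with those 16288 probe sets it recovered 71% of 2-fold and 97% of 4-fold changes, with 6 false calls of 174. The simulated noise was drawn for each probe set alone, with no shift shared over an array such as untreated 1. It held 100 changed probe sets at each fold, whereas 19 passed in the real data. These shares can therefore overstate the recovery on the real arrays. Tables and plots used Python 3.11.15 with pandas 2.3.3 and matplotlib 3.10.9.

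All members were named. Of the wider list, the rule names each gene that passed, each listed on all 4 arrays of 1 group alone, and the 4 with the smallest p. Gja4, Pde3a, Gucy2c, Gmps, Guk1, Ppp1r12a, Ppp1r12b and the marker genes given by name were added after their values were seen. The members and lists were chosen with earlier results of these data known. Alternatives covered scaling, pseudocount, filter, variance model, array weights, a replicate block and each array left out. Correlations without untreated 1 were added after the data were seen.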

Additional observations from a re-analysis of the deposited data

Results flagged for a closer look

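Among 40 groups of 4 arrays examined, 12 held 1 array far from the other 3. For independent normal values the rule would pick about 1 in 20, or 2. The groups here share the same arrays and include small counts, so 12 and 2 cannot be compared as a test. The figure given for each is the gap of that array to its nearest neighbour over the range of the group. Untreated 1 was far above the other untreated arrays in 8 of the 12. These were Nppc at 0.988, Npr2 at 0.95, Pde5a 1458341_x_at at 0.856, the number of member probe sets listed at 0.833, Gja1 at 0.885, and the summed intensities of the granulosa and cumulus markers at 0.887, of the theca and steroid markers at 0.89 and of the smooth muscle and stroma markers at 0.908. Among milrinone arrays, milrinone 2 had the highest summed intensity of smooth muscle and stroma markers, at 0.929. The other 3 are counts of probe sets listed in which 1 array differed and the other 3 were equal, so that the figure is 1. They are the members on milrinone 1, the smooth muscle and stroma markers on milrinone 2, and the endothelial and blood markers on milrinone 4.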

How the results depend on the processing

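The 5 tested member probe sets gave 94 values over 19 alternatives. None passed, with a lowest adjusted p of 0.225 in limma, and 89 kept their direction. The 5 that changed sign were all of Prkg2 1421354_at, at -0.17 under quantile normalization, -0.016 under median centring, -0.085 without untreated 1, -0.087 without untreated 2 and -0.067 without milrinone 2. With each array left out in turn it ranged from -0.087 to 0.24. Prkg1 1444232_at ranged from 0.37 to 0.93, Prkg1 1449876_at from 0.27 to 0.84, Prkg2 1435162_at from 0.20 to 0.73 and Pde5a 1458341_x_at from -0.91 to -0.07. As deposited, the median over the tested probe sets was 0.06, and it became -0.13 under quantile normalization and 0.37 with centring on ribosomal proteins.

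Over all probe sets 19 passed in limma. There were 53 with centring on ribosomal proteins, 93 with array weights and 12 among those listed on all 8 arrays, and leaving out 1 array gave 8 (without milrinone 3) to 69 (without untreated 1). Listing on all untreated and no milrinone arrays gave 227 to 500 probe sets with 1 array left out, and 2 or 3 members, the third being Npr3 1435184_at without untreated 4. The opposite pattern gave 20 to 34. The cause of these shifts was not tested. With the replicate number as a block 13 passed and no member did. Arrays of the same number correlated at 0.0333, -0.199, -0.0236 and -0.266 in their deviations, so the numbers were not taken as pairs. Empty cells limit the ligand and receptor results, since they set no bound.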
